A study of Mus musculus with 12 samples.

Results

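The genes described here encode the proteins of the cytosolic ribosome and were followed in the livers of mice fed a normal diet (ND), a high-fat diet (HFD), the HFD with chrysanthemum leaf ethanol extract (CLE) or the HFD with the flavone luteolin (LU). Members were gene names made of Rpl or Rps and a number, with at most 1 letter (a, x, y or l) and digits after it. Rpsa, Rplp0, Rplp1 and Rplp2 were added, and names of pseudogenes and of the ribosomal S6 kinases were left out. Names with other endings, such as Rps27rt and Rpl36al, were outside this rule. Of 22170 gene names, 82 fitted this rule and 79 reached at least 1 FPKM, which relates the fragments of a transcript to its length and to the reads mapped, averaged over the 12 livers. They comprised 31 small subunit genes, 44 large subunit genes and the 4 paralogs Rpl22l1, Rps27l, Rpl7l1 and Rps4l. The lowest values kept were 1.79 FPKM for Rpl13, 14.6 FPKM for Rps4l and 22.3 FPKM for Rpl7l1, and the names left out were Rpl3l at 0.0386 FPKM, Rpl39l at 0.0202 FPKM and Rpl10l, which was listed at 0.

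All mice were male C57BL/6J, aged 21 weeks, and had been on their diet for 16 weeks, with 3 livers sequenced per group. CLE was mixed into the HFD at 1.5% by weight and luteolin at 0.003%. The livers were chosen by the study as representative of each group, and the criterion was not given in the sources used here. Of 8 hepatocyte markers, the 7 other than Alb (Apoa1, Apob, Ttr, Tf, Cyp2e1, Cps1 and Hnf4a) were present in every liver, and all markers summed to 20911 to 26698 FPKM in the 11 livers in which Alb was listed at 0. Alb, the gene of albumin, was listed at 19853 FPKM in LU mouse 3 alone, where the sum was 43405 FPKM.

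A ribosome is built from a small subunit that reads the mRNA and a large subunit that joins the amino acids, and each cytosolic ribosomal protein is present in equal number apart from the stalk proteins. Transcripts of these genes belong to the TOP mRNAs, which begin with a C followed by a run of pyrimidines and whose translation is switched by mTOR through the RNA-binding protein LARP1. Hepatocytes hold many ribosomes because they make most plasma proteins, and in bulk tissue fewer cells of a type and less RNA per cell cannot be told apart.

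The start of the transcript is shown for some of the members named below, because the pyrimidine run there is the feature that names the TOP class. The choice does not represent the family, for which the share with a run is given after the sequences. RefSeq promoter sequences (GRCm38.p6) were found for 57 of the 79 members. Each window holds 15 bases before and 15 bases from the RefSeq start, 5′ to 3′ on the gene's strand. Capitals mark the first run of a C followed by at least 4 pyrimidines that begins within 5 bases of that start.
Rps27, chr3:90213634-90213663, minus strand: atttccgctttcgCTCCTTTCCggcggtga
Rps18, chr17:33955651-33955680, minus strand: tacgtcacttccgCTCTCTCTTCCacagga
Rps6, chr4:86857353-86857382, minus strand: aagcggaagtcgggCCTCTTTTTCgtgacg
Rpl12, chr2:32961697-32961726, plus strand: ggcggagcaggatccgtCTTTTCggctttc
Rpl27a, chr7:109519180-109519209, plus strand: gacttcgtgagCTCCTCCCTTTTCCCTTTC
Rpl5, chr5:107900513-107900542, plus strand: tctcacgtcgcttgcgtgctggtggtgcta
Rpsa, chr9:120127751-120127780, plus strand: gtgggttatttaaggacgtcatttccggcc

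Such a run was present in 27 of the 57 members (47.4%) and in 17.1% of all 32851 RefSeq mouse promoters. Rpl5 and Rpsa had no run in this window, which says only that these letters are not there. The RefSeq start lay a median of 14 bases from the start in the deposited table, so the window may miss the start used in liver. Most windows shown lay further away: 33 bases for Rps27, 52 for Rps18, 45 for Rps6, 153 for Rpl12, 48 for Rpl27a and 44 for Rpl5, against 0 for Rpsa. In the 300-base promoters, searched on both strands, the letters CCGGAAG (a core of the GABPA site) were found in 40.4% of members and 8.86% of all promoters. The GC box GGGCGG was found in 63.2% against 35.7%, the YY1 core AAGATGG in 14% against 6.34% and the TATA box TATAAA in 10.5% against 13.6%.

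Some gene names in the deposited table do not follow the genes. The 7 transcripts named Rpl13 were assembled without a reference transcript, and the most abundant lay at chr1:39597442-39599805, so the values given for Rpl13 by name were not those of a reference Rpl13 transcript. Transcripts at the Rpl24 gene carried the name ZBTB11, and a transcript of Rpl13a carried the name Flt3lg, so both genes were outside the rule. Rps4l is annotated as a transcribed processed pseudogene. Ribosomal protein genes have many processed copies in the mouse genome, and how fragments shared with such copies were assigned was not given in the sources used here.

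Ribosomal protein mRNAs were abundant in every liver, with the acidic stalk gene Rplp1 at the top. Rplp1, which helps recruit elongation factors, averaged 594 ± 70.8 FPKM in ND, 675 ± 164 FPKM in HFD, 739 ± 158 FPKM in CLE and 722 ± 51.7 FPKM in LU (SD, n = 3). Other members with high means over all livers were Rps18 (609 FPKM), Rps29 (589 FPKM), Rpl10 (545 FPKM) and Rps15 (473 FPKM). The stalk genes were unequal per length, with means of 234 FPKM for Rplp0, which anchors the stalk, and 79.8 FPKM for Rplp2.

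The summed level of the 79 genes differed more between livers of the same group, in HFD and CLE, than between group means. The sum was 18573, 15767 and 16304 FPKM in ND mice 2, 3 and 4, and 22048, 15882 and 15200 FPKM in HFD mice 12, 15 and 18. It was 17331, 26287 and 20041 FPKM in CLE mice 2, 4 and 11, and 20350, 20006 and 18916 FPKM in LU mice 2, 3 and 8. HFD mouse 12 and CLE mouse 4 stood above the others of their groups, the LU livers lay close together, and all 3 LU livers were above all 3 ND livers.

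HFD mouse 12 exceeded HFD mouse 15 in 78 of 79 genes, with a 1.39-fold higher sum. CLE mouse 4 exceeded CLE mouse 2 in 76 of 79 genes, with a 1.52-fold higher sum. Group means were 16881 ± 1489 FPKM in ND, 17710 ± 3772 FPKM in HFD, 21220 ± 4593 FPKM in CLE and 19757 ± 748 FPKM in LU (SD, n = 3), and the CLE and HFD ranges overlapped. No test was made on the sum.

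**Figure D1:**
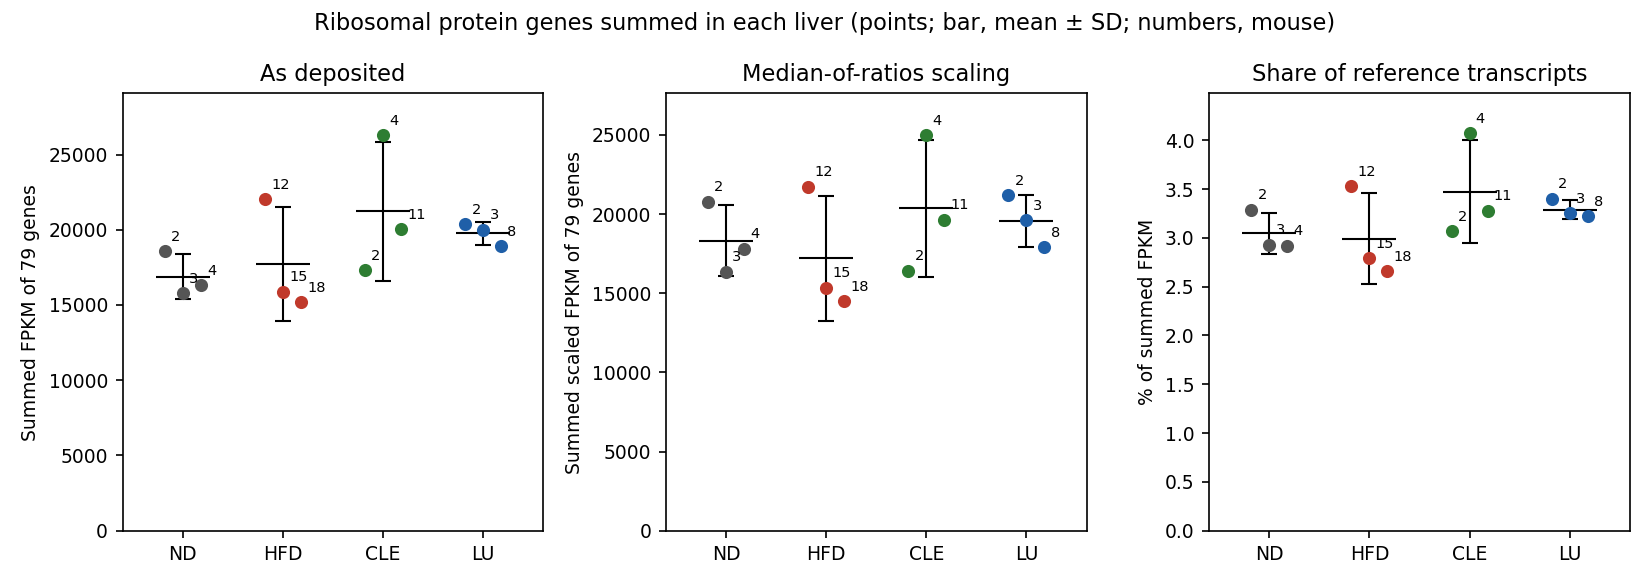
Summed FPKM of the 79 genes in each liver as deposited (left), after median-of-ratios scaling (middle) and as a percentage of the summed FPKM of gene names with a reference transcript (right); points are livers with mouse numbers, and bars are group mean ± SD (n = 3). HFD mouse 12 (22048 FPKM) and CLE mouse 4 (26287 FPKM) stand apart within their groups in all 3 panels.

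Scaling the libraries kept the same livers at the top of HFD and CLE. Median-of-ratios factors, which bring the typical gene to the same level in every library, ran from 0.894 to 1.06. The scaled sum averaged 18315 ± 2244 in ND, 17194 ± 3953 in HFD, 20354 ± 4318 in CLE and 19573 ± 1638 in LU (SD, n = 3), so that the mean of HFD was above that of ND as deposited and below it after scaling. The LU livers, from 17914 to 21189, then overlapped with the ND livers, from 16362 to 20767. As a share of the summed FPKM of gene names with a reference transcript, the family took 3.05 ± 0.212% in ND, 2.99 ± 0.468% in HFD, 3.47 ± 0.526% in CLE and 3.29 ± 0.095% in LU. In LU mouse 3, Alb made up 19853 FPKM of the reference sum of 616051 FPKM.

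The libraries also differed in other properties. An assembled transcript with a hit to the ART2 protein and no reference transcript, listed at 817802 to 3500000 FPKM, was highest in CLE mouse 4, while HFD mouse 12 and ND mouse 2 both had 2050000 FPKM. Spearman's rho between transcript length and the deviation of a gene from its own mean was taken over the 78 members with a length. It was -0.49 in HFD mouse 12, -0.27 in HFD mouse 15 and -0.23 in CLE mouse 4, and -0.06 to 0.39 in the other livers. Over all genes with a length, rho was -0.15 in HFD mouse 12, -0.20 in CLE mouse 4, -0.30 in CLE mouse 11 and -0.29 to -0.13 in LU. It was 0.05 to 0.29 in ND, 0.28 and 0.22 in HFD mice 15 and 18, and 0.14 in CLE mouse 2. Every liver with a negative rho over all genes had a higher family sum than every liver with a positive one. Lengths and GC content are those of the matched reference transcript, also where the most abundant transcript was an assembled isoform. This was so for Rps15a (5179 bases) and Rps20 (3706 bases), whose measured transcripts may differ in length. Over all genes, the deviation followed GC content with rho from -0.37 to -0.14 in ND and HFD livers and from 0.16 to 0.48 in CLE and LU livers, so that GC dependence and supplementation cannot be told apart. The part of these properties in the results below was not tested beyond the corrections given beside them.

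**Figure D2:**
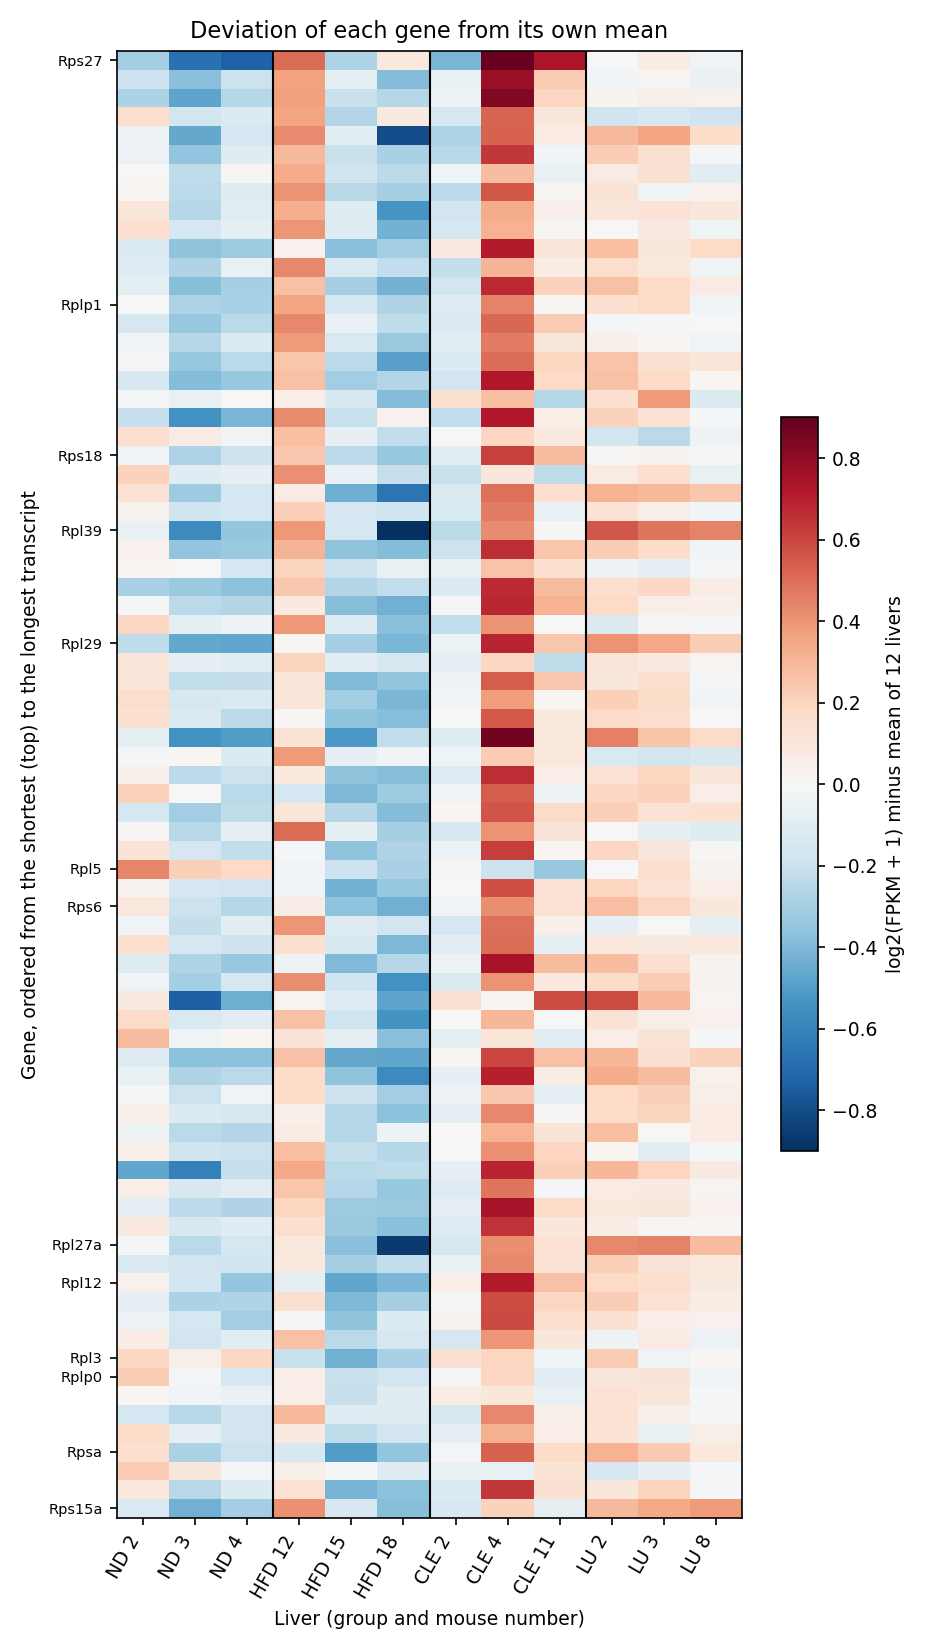
Deviation of log2(FPKM + 1) from the gene's mean over the 12 livers (colour), for the 78 genes with a reference transcript length. Genes are ordered by that length from 345 bases at the top to 5179 bases at the bottom, with some genes labelled. Columns are livers grouped by diet. Whole columns share a colour, red in HFD mouse 12 and CLE mouse 4 and blue in HFD mice 15 and 18, while Rpl5 (854 bases) departs from its column in CLE mouse 4.

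Because the members moved together, most of the spread between mice was common to the family. The median SD of a member within groups was 0.23 on the log2 scale as deposited. When each member was expressed relative to the family in the same liver, it was 0.09, and the SD was lower for 73 of 79 members.

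The comparison of HFD with ND asks what the diet alone did. Most of the family did not pass the test, and 2 large subunit genes fell. Rpl3, a core protein next to the peptidyl transferase centre, measured 179, 163 and 179 FPKM in ND mice 2, 3 and 4 and 137, 116 and 128 FPKM in HFD mice 12, 15 and 18. Rpl5, which carries the smallest ribosomal RNA into the large subunit together with Rpl11 and can bind Mdm2, measured 192, 164 and 160 FPKM in ND and 139, 124 and 115 FPKM in HFD. Every HFD liver was below every ND liver for both genes, including HFD mouse 12, in which 69 of 79 members were above their own mean.

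The log2 fold change of Rpl3 was -0.45 ± 0.11 (SE, adjusted p = 0.02, limma) and that of Rpl5 was -0.45 ± 0.12 (adjusted p = 0.03). On the same test, 12.1% of all 11566 genes tested passed, made up of 9.99% that were higher and 2.11% that were lower, so the 2 of 79 members called (2.53%) were near the background for lower genes. Both calls were kept under median-of-ratios scaling, where the changes were -0.61 (adjusted p = 0.011) and -0.61 (adjusted p = 0.013), and after correction for transcript length and GC content, where 4 members were lower. Both were lost without ND mouse 2 (adjusted p = 0.08 and 0.14), ND mouse 4 (0.071 and 0.052), HFD mouse 15 (0.081 and 0.083) or HFD mouse 18 (0.062 and 0.12), and Rpl5 was also lost without ND mouse 3 (0.053). Scaling to an equal sum over all gene names lost both (0.52 and 0.53), and Rpl5 was lost with its most abundant transcript (0.18) or with reference transcripts alone (0.056).

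Over the family, the median log2 fold change was 0.02 against 0.11 for all genes, with 45 of 79 members above 0 (57%) against 69.2% of all genes. Since the median of all genes was shifted by 0.11, the family lay below the typical gene. After median-of-ratios scaling, its median was -0.14 against -0.01 for all genes, and 14 of 79 members were above 0. Over all genes called, the share that was higher moved from 82.6% to 55.2% with this scaling. The sign of the family's median therefore depended on how the libraries were scaled, and it was between -0.32 and 0.10 over all settings tried.

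Groups did not overlap for 4 members that were higher in HFD, Rps27 and Rpl37a among them, against 29.1% of all genes, and for 3 that were lower (Rpl3, Rpl5 and Rpl13), against 7.44%. Rps27, a zinc finger protein of the small subunit, measured 340, 265 and 255 FPKM in ND and 599, 349 and 452 FPKM in HFD, a log2 difference of 0.68 ± 0.30 that did not pass (adjusted p = 0.16). The near-identical copy Rps27rt measured 377 to 745 FPKM over the livers, and Rps27 and Rps27rt together came to 736 ± 52.6 FPKM in ND and 1072 ± 239 FPKM in HFD. How their shared fragments were divided is uncertain. Rpl37a, a large subunit protein, had a log2 difference of 0.48 ± 0.21 (adjusted p = 0.17). At an unadjusted p under 0.05 there were 4 members, against 27.2% of all genes.

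**Figure D3:**
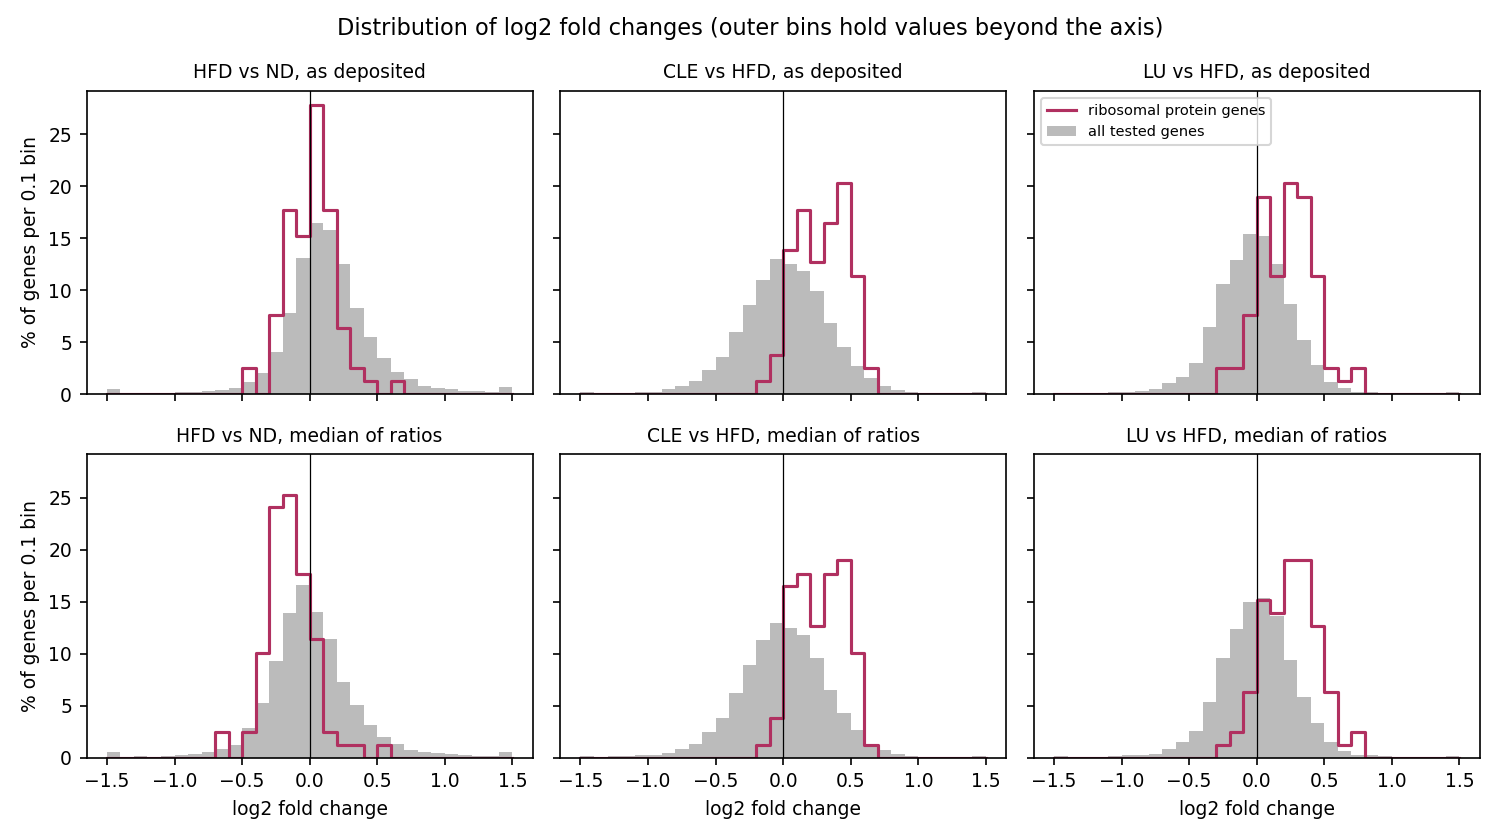
Distribution of log2 fold changes for all 11566 tested genes (grey bars) and the 79 ribosomal protein genes (line), as % of genes per 0.1 bin, for HFD over ND, CLE over HFD and LU over HFD, as deposited (top) and after median-of-ratios scaling (bottom). The members sit to the right of all genes in both supplemented groups under either scaling, and their median moves from 0.02 to -0.14 in HFD against ND.

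The comparison of CLE with HFD asks what the extract did on the same fat diet. Members were higher by a median of 0.31 on the log2 scale against 0.02 for all genes, with 75 of 79 above 0 (94.9%) against 51.9% of all genes. Members moved together in each liver, so such counts are not independent observations, here or in the other comparisons. The SD between mice of the members' mean log2 value, pooled over the groups, was 0.21. Single members mostly did not pass: 3 rose and none fell, against 2.74% and 3.29% of all genes, or 6.03% in both directions. Of these 3 (3.8% of members), 1 was the unplaced Rpl13, so 2 identified ribosomal protein genes rose, Rpl12 and Rpl3. At an unadjusted p under 0.05 there were 26 members (32.9%), against 29.5% of all genes.

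Rpl12, a protein at the base of the stalk, measured 84.6, 64.6 and 67.4 FPKM in HFD mice 12, 15 and 18 and 93.6, 148 and 108 FPKM in CLE mice 2, 4 and 11. Its log2 fold change was 0.66 ± 0.16 (adjusted p = 0.039, limma). Rpl3 measured 173, 180 and 153 FPKM in CLE, each above the 3 HFD livers, with a log2 fold change of 0.41 ± 0.11 (adjusted p = 0.048). This comparison shares its HFD mice with the one above, and between CLE and ND the log2 difference of Rpl3 was -0.04 (adjusted p = 0.8).

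Rpsa, which is also known as the laminin receptor, measured 118, 91.9 and 102 FPKM in HFD and 130, 189 and 147 FPKM in CLE, and its log2 difference of 0.56 ± 0.16 did not pass (adjusted p = 0.051). Rpl7a, Rpl18 and Rps12 had log2 differences of 0.52 to 0.57 and adjusted p of 0.064 to 0.072. Groups did not overlap for 10 members, all higher in CLE, against 16.3% of all genes that were higher and 15% that were lower.

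The calls in CLE depended on single livers and on the scaling or correction used. Without CLE mouse 4, no member passed, and without CLE mouse 2, the lowest CLE liver, 26 did. No member passed without HFD mouse 12, HFD mouse 15 or HFD mouse 18 either, and Rpl12 had adjusted p of 0.06, 0.16 and 0.087. Rpl12 was also lost without CLE mouse 4 (0.14), CLE mouse 11 (0.056), ND mouse 3 (0.052) or LU mouse 2 (0.054). It passed in 15 of 30 settings where Rpl3 passed in 5. Median-of-ratios scaling kept Rpl12 (adjusted p = 0.045, limma) and lost Rpl3 (0.069), as did correction for transcript length (0.037 and 0.076). Quantile normalization kept both (0.033 and 0.036). Correction for GC content lost both (0.06 and 0.089), as did an equal sum over all gene names (0.8 and 0.96). Without HFD mouse 12 and CLE mouse 4 together, the median was 0.30 with 77 of 79 members above 0 and no member called.

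**Figure D4:**
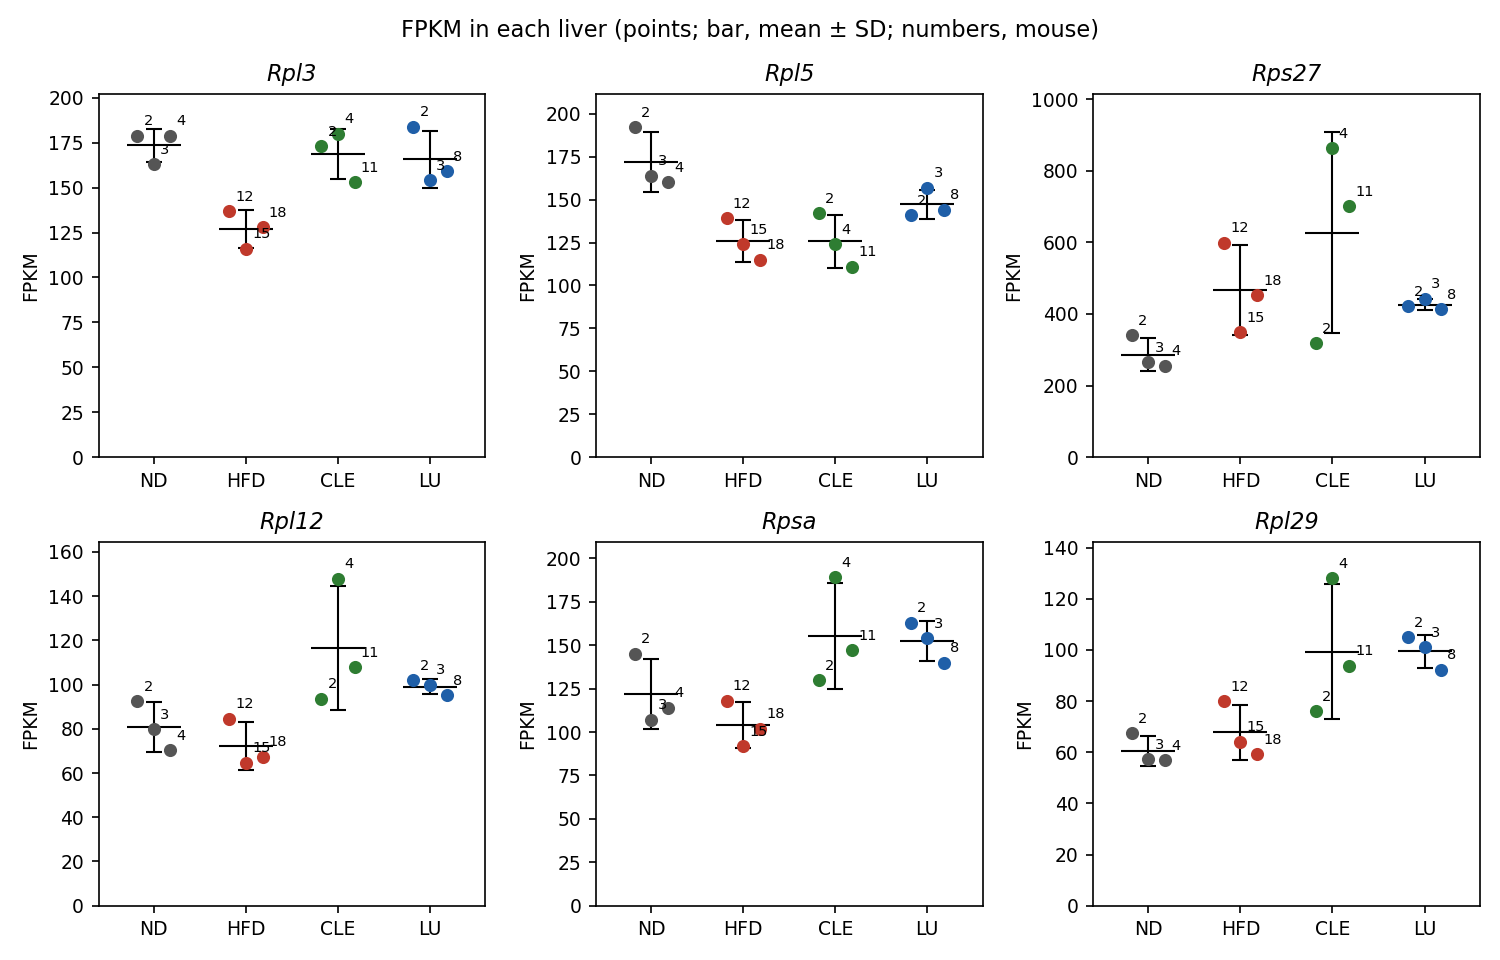
FPKM of 6 genes in each liver (points with mouse numbers) with group mean ± SD (bars, n = 3). Rpl3 and Rpl5 are lower in all 3 HFD livers than in all 3 ND livers, Rpl5 stays low in CLE, and Rpl29 is higher in every LU liver than in every ND and HFD liver.

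The comparison of LU with HFD asks the same of luteolin, and it shares the HFD livers. The median was 0.23 against -0.02 for all genes, with 69 of 79 members above 0 (87.3%) against 47.3%. No member passed in limma, against 1.03% of all genes (0.303% higher and 0.726% lower), and the smallest adjusted p was 0.084. At an unadjusted p under 0.05 there were 19 members (24.1%), against 20.3% of all genes. Groups did not overlap for 21 members that were higher in LU (26.6%), against 13.1% of all genes, and for 1 that was lower, Rpl17, against 16.9%.

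Rpl27a, a large subunit protein, measured 71.8, 51.6 and 36.6 FPKM in HFD and 91.2, 91.8 and 81.9 FPKM in LU, a log2 difference of 0.77 ± 0.20 (adjusted p = 0.084). Rpsa measured 163, 154 and 140 FPKM in LU, a log2 difference of 0.55 ± 0.16 (adjusted p = 0.1). Every LU liver was above every HFD liver for both genes. Rps6, the substrate of the S6 kinases, measured 266, 197 and 188 FPKM in HFD and 306, 290 and 272 FPKM in LU, a log2 difference of 0.43 ± 0.16 (adjusted p = 0.16).

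Rps13, Rpl29 and Rpl12 had log2 differences between LU and HFD of 0.63, 0.56 and 0.46 (adjusted p = 0.12, 0.12 and 0.16). Without HFD mouse 12, Rpl27a passed. With HFD mouse 12 and CLE mouse 4 both left out, the median was 0.40 and 16 members passed, all higher in LU. With CLE mouse 4 alone left out, 3 members passed, Rpl27a, Rpl29 and Rpsa.

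Against ND, more members passed in CLE than in any other comparison. In CLE, 12 rose and 1 fell, against 20.9% and 6.08% of all genes, so that 16.5% of members passed against 27%. The median was 0.29 against 0.16 for all genes, and 73 of 79 members were above 0, against 66.7%. At an unadjusted p under 0.05 there were 28 members, against 42.9% of all genes. Groups did not overlap for 18 members that were higher, against 32.2% of all genes, and for 1 that was lower, against 10.1%. Those that rose included Rpl6, Rpl7a, Rpl11, Rpl12, Rpl13, Rpl29, Rpl31, Rps7, Rps12, Rps27 and Rps28, and Rpl5 fell, with 142, 124 and 111 FPKM in CLE and a log2 fold change of -0.45 ± 0.12 (adjusted p = 0.019).

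The 12 higher calls were tied to the scaling. After median-of-ratios scaling, the family's median in CLE against ND was 0.12 against 0.02 for all genes, and Rpl5 was the only member called. Over all genes called, the share that was higher moved from 77.5% to 43%. With correction for transcript length, the family's median was 0.00 and the 4 members called (Rpl5, Rpl9, Rpl41 and Rps3) were all lower in CLE. Without CLE mouse 4, ND mouse 3 or ND mouse 4, 2 members passed, and without CLE mouse 2, 31 did, 30 of them higher. Without CLE mouse 11, 5 passed, and without ND mouse 2, 8 passed, all of them higher, and Rpl5 did not (adjusted p = 0.065 and 0.071).

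In LU against ND, 2 members rose, Rpl29 and Rps15a, and none fell, against 11.2% and 3.78% of all genes, so that 2.53% of members passed against 14.9%. Rpl29, a large subunit protein that also binds heparin, measured 67.4, 57.2 and 56.9 FPKM in ND and 105, 101 and 92.3 FPKM in LU, a log2 fold change of 0.71 ± 0.17 (adjusted p = 0.019, limma). Rps15a measured 184, 150 and 164 FPKM in ND and 248, 257 and 265 FPKM in LU, a log2 fold change of 0.63 ± 0.17 (adjusted p = 0.031).

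Groups did not overlap for 39 members that were higher in LU (49.4%), against 29.4% of all genes, and for 4 that were lower, against 11.5%. The median was 0.22 against 0.12 for all genes, and 69 of 79 members were above 0, against 64.9%. At an unadjusted p under 0.05 there were 16 members, against 34.3% of all genes. After median-of-ratios scaling, no member passed in LU against ND, the median was 0.09 and 55 of 79 members were above 0. The share of higher genes among all genes called moved from 74.7% to 40.7%. The number called was 0 without ND mouse 3, ND mouse 4, LU mouse 2 or LU mouse 3, 1 without LU mouse 8, 5 without HFD mouse 12, 7 without CLE mouse 2 and 11 without CLE mouse 4.

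CLE and LU, the extract and its flavone at their own doses, were not separated in this family. No member passed in limma, against 0.00865% of all genes, and 1 had an unadjusted p under 0.05, against 4.39%. The median was 0.06 against 0.03 for all genes, with 58 of 79 members above 0, against 59.2%. Groups did not overlap for 3 members that were higher in CLE (Rpl17, Rpl23a and Rpl13), against 4.66% of all genes, and for 2 that were lower (Rps15a and Rpl39), against 2.42%. The p-values that missed the threshold do not show that both diets acted alike, and the median SE of a member's difference was 0.17 on the log2 scale.

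Library scaling changed the family's median to differing degrees. As deposited, it was 0.02 for HFD against ND, 0.31 for CLE against HFD and 0.23 for LU against HFD. Over 29 alternatives of all kinds, it moved by at least 0.21, the SD between mice, in 1, 2 and 1. Scaling to an equal sum over all gene names, a sum dominated by the assembled ART2 transcript, gave medians of -0.32 for HFD against ND, 0.01 for CLE against HFD and 0.15 for LU against HFD, where all genes had -0.17, -0.22 and -0.08. Scaling to an equal sum over names with a reference transcript gave -0.06, 0.27 and 0.20. Quantile normalization gave -0.03, 0.27 and 0.23, and correction for transcript length gave -0.15, 0.19 and 0.15. The members' median stood above that of all genes in both supplemented groups against HFD, and below it in HFD against ND, under each of these and as deposited.

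The members were also compared with one another. Expressed relative to the family in the same liver, Rpl5 was at 0.42 in ND, -0.05 in HFD, -0.34 in CLE and -0.03 in LU on the log2 scale. Rps27 had group means of -0.43 in ND, 0.23 in HFD, 0.28 in CLE and -0.08 in LU, but CLE mouse 2 stood at -0.32, as did ND mouse 2, where CLE mice 4 and 11 stood at 0.54 and 0.63. Rpl39, which lines the exit tunnel, stood at 0.40 in LU and between -0.19 and -0.10 in the other groups. Its processed copy Rpl39-ps, outside the rule, fell in LU against HFD, and how fragments shared by these genes were divided is uncertain. On this scale the test called Rpl5 as lower in CLE against ND and no member in the other comparisons, so the values of Rps27 and Rpl39 did not pass. Rpl3 and Rpl5 in HFD against ND had -0.46 and -0.46 (adjusted p = 0.25 and 0.3). The family's shift was taken from all genes before this test, which also changed the spread of genes outside the family. A member that missed the threshold here is therefore not shown to have followed the family.

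**Figure D5:**
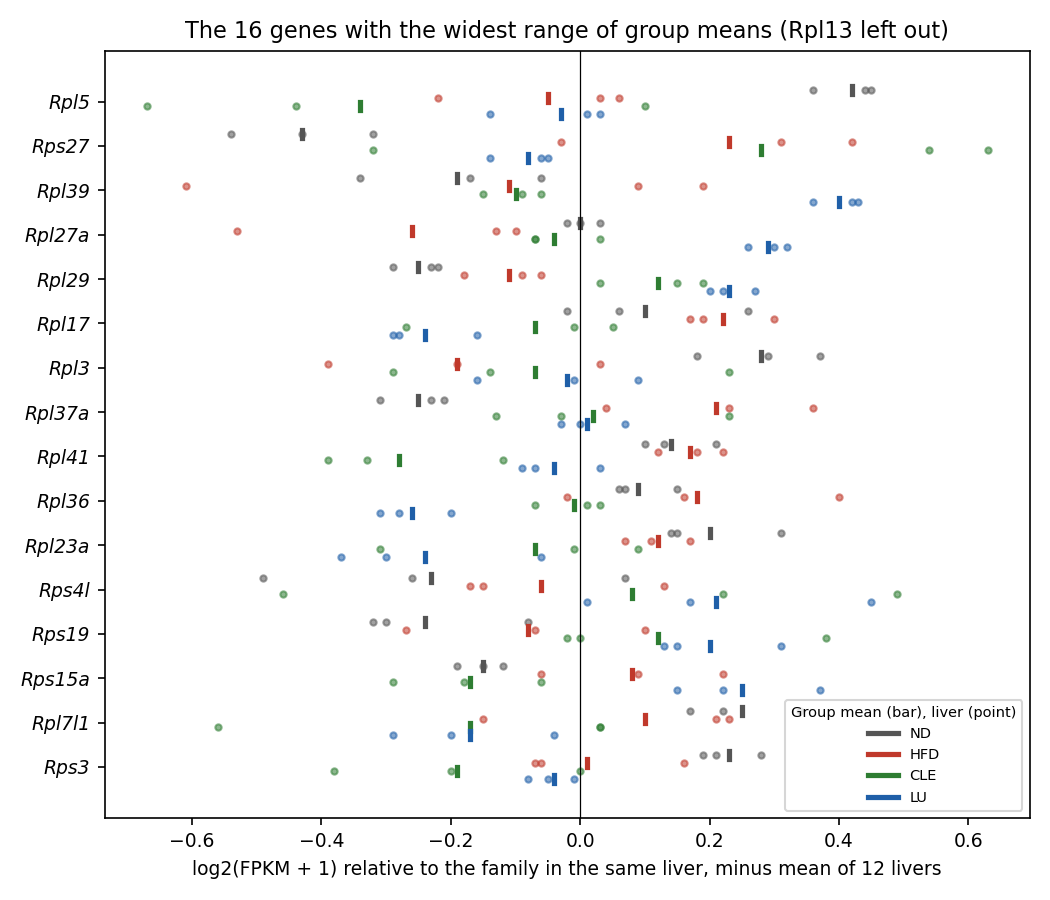
Level of 16 genes relative to the family in the same liver, as log2 difference from the gene's mean over 12 livers; points are livers and bars are group means, and Rpl13 was left out because no reference transcript carried its name. Rpl5 runs from 0.42 in ND to -0.34 in CLE, and Rps27 has livers of CLE on both sides of 0 (-0.32, 0.54 and 0.63). Rpl39 has its highest group mean in LU at 0.40, where its processed copy Rpl39-ps (not shown) fell against HFD.

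The balance of the subunits was compared through their sums. The ratio of small to large subunit genes in summed FPKM was 0.858 ± 0.0216 in ND, 0.867 ± 0.0202 in HFD, 0.915 ± 0.0375 in CLE and 0.921 ± 0.00557 in LU (SD, n = 3). The LU livers lay between 0.918 and 0.928, above all ND and HFD livers, which lay between 0.833 and 0.886, while CLE mouse 2 was at 0.875. No test was made on this ratio.

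Paralogs were less abundant than the genes they resemble. Rpl22 averaged 167 ± 14.5 FPKM in ND and 178 ± 52.1 FPKM in HFD, and Rpl22l1 averaged 47.6 ± 1.22 and 43.8 ± 6.97 FPKM. Rps27l, a stress-responsive relative of Rps27, averaged 236 ± 15.5 FPKM in ND and 294 ± 73.2 FPKM in HFD (adjusted p = 0.31). Rpl7 averaged 188 ± 3.23 FPKM in ND and Rpl7l1 24.1 ± 2.09 FPKM. No paralog passed in any of the 6 comparisons.

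Members with known roles outside or alongside the ribosome were followed by name. Rpl11, the partner of Rpl5, measured 139, 125 and 132 FPKM in ND, 167, 130 and 118 FPKM in HFD and 157, 230 and 175 FPKM in CLE, so that the HFD and ND livers overlapped where Rpl5 did not. Rps3, which also takes part in DNA repair, had log2 differences of -0.20 in HFD against ND, 0.09 in CLE against HFD and 0.17 in LU against HFD. Rps19, the gene most often mutated in Diamond-Blackfan anaemia, had 0.17, 0.49 and 0.49, with adjusted p of 0.69, 0.18 and 0.25. Rps27a, made as a fusion with ubiquitin, had -0.09, 0.42 and 0.36.

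Genes often taken as references for PCR were not equally steady. Rplp0 averaged 238 ± 31.5 FPKM in ND, 218 ± 21.9 FPKM in HFD, 238 ± 24.4 FPKM in CLE and 243 ± 13.9 FPKM in LU (SD, n = 3). Rps18 averaged 535 ± 45.8, 563 ± 128, 735 ± 178 and 603 ± 9.28 FPKM. Its log2 difference in CLE against HFD was 0.38 ± 0.18 (adjusted p = 0.18), where that of Rplp0 was 0.13 ± 0.13 (adjusted p = 0.51). Rpl32 had a mean of 366 FPKM and a range of 256 to 510 FPKM over the livers.

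Other genes of the ribosome pathway were counted from fixed lists. Calls of genes outside the family, cell type markers included, were not repeated with other scaling or with livers left out. The 3 remaining ribosome parts Fau, Rpl36al and Gnb2l1, the last also called Rack1, had median log2 differences of -0.05 for HFD over ND, 0.39 for CLE over HFD and 0.29 for LU over HFD, with none called. Among 18 other TOP mRNAs the medians were -0.07, 0.14 and 0.14, where all genes had 0.11, 0.02 and -0.02. Only Vim, an intermediate filament gene of mesenchymal cells, was called in these comparisons. It rose in HFD (log2 fold change 0.84 ± 0.13, adjusted p = 0.0012, limma), as did 9.99% of all genes. In CLE and LU against HFD, where none of the 18 was called, 6.03% and 1.03% of all genes were. The elongation factor Eef1a1, another TOP mRNA, had log2 differences of -0.20, -0.02 and 0.09.

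Of 46 ribosome biogenesis genes tested, Tsr1, a factor of small subunit maturation, fell in HFD (log2 fold change -0.62 ± 0.19, adjusted p = 0.05). Ebna1bp2, a factor of large subunit assembly, rose in CLE against HFD (0.62 ± 0.11, adjusted p = 0.019), as did the nucleolar Mybbp1a (0.60 ± 0.16, adjusted p = 0.045). No biogenesis gene was called in LU against HFD. The 1 of 46 that fell in HFD and the 2 of 46 that rose in CLE were near the 2.11% and 2.74% of all genes called in those directions. Their medians in the same order were -0.09, 0.12 and 0.07.

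Of 22 regulators of the pathway tested, none passed in HFD against ND or LU against HFD, and Eif4ebp2, an inhibitor of cap-dependent translation, fell in CLE against HFD (-0.55 ± 0.15, adjusted p = 0.045). Against ND, 4 regulators rose and 3 fell in CLE, where 27% of all genes passed, and 1 rose and 2 fell in LU, where 14.9% did, so both counts were near the background. Larp1, which holds TOP mRNAs, fell in both, with log2 fold changes of -0.34 ± 0.09 in CLE (adjusted p = 0.02) and -0.45 ± 0.09 in LU (adjusted p = 0.01), the ND livers being shared. Of 58 translation factors, 1 rose and 1 fell in HFD against ND (background 12.1%) and in CLE against HFD (6.03%), and none was called in LU against HFD (1.03%).

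Summed markers of several other liver cell types were higher in HFD than in ND without overlap. The hepatocyte sum was higher as well, at 20911 to 22555 FPKM in ND and 22808 to 25317 FPKM in HFD, but its markers did not move together. Ttr, Tf and Cyp2e1 were higher in every HFD liver than in every ND liver, and Apob and Hnf4a overlapped. Apoa1 was lower in every HFD liver, at 3384 to 4259 FPKM against 4742 to 6116 FPKM in ND. So was Cps1, at 535 to 647 FPKM against 726 to 1048 FPKM in ND. Among all single genes tested, 29.1% were higher in HFD without overlap. Of 6 macrophage markers measured, 3 passed in HFD against ND, where 12.1% of all genes did, and their summed level was 99.7 to 112 FPKM in ND, 145 to 218 FPKM in HFD, 144 to 180 FPKM in CLE and 109 to 187 FPKM in LU. Of 5 stellate cell markers, 2 passed, with sums of 87.7 to 126 FPKM in ND and 141 to 184 FPKM in HFD. Each macrophage marker but Marco was higher in every HFD liver than in every ND liver. Marco measured 12.2, 1.68 and 2.24 FPKM in ND and 2.43, 2.47 and 3.2 FPKM in HFD. Of 5 sinusoidal endothelial markers, 1 passed, with sums of 63.4 to 74.8 FPKM in ND and 80.1 to 84.7 FPKM in HFD. Stab2, Clec4g and Pecam1 were higher in every HFD liver and Lyve1 overlapped. Kdr went the other way, with 8.58, 9.97 and 8.85 FPKM in ND and 6.71, 8.1 and 7.73 FPKM in HFD. Erythroid markers, of which none passed, summed to 132 to 182 FPKM in ND and 216 to 282 FPKM in HFD. Markers of dividing cells summed to 1.47 to 2.81 FPKM in ND, 3.74 to 7.32 FPKM in HFD, 2.4 to 5.13 FPKM in CLE and 2.42 to 7.54 FPKM in LU, and lymphocyte markers to 6.42 to 14.4 FPKM over all livers. Their part in the levels of ribosomal protein genes was not tested.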

How the data were processed

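Liver mRNA of 12 mice was sequenced by the study as paired reads (TruSeq, HiSeq2500), and the authors deposited FPKM for 152210 transcripts from CASAVA 1.8.2, Bowtie2 2.2.3, TopHat2 2.0.12 and Cufflinks 2.2.1 (versions per the submitters' processing notes). Whether the deposited FPKM hold the normalization factors that the methods name (DEGES with edgeR) and the genome build are not given in the sources used here. Of the known transcripts, 87.6% had the start and end of GENCODE M21 (GRCm38), whose positions are printed. Depth is unknown, so no counting intervals are given.

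FPKM were summed per gene name in each liver. The 11566 genes averaging 0.5 FPKM or more were tested on log2(FPKM + 1), a scale that understates changes of low genes, with limma 3.58.1 (R 4.3.3), trended moderation, all 12 livers in 1 fit (12.8 total degrees of freedom) and Benjamini-Hochberg adjustment over all genes at 0.05. Called, rose and fell mean past this threshold. The fit was tested on simulated data. Named members were, for HFD over ND and for CLE and LU over HFD, the 8 called or with the smallest p, the 6 highest, paralogs and a list by role. Other names in short counts were chosen after their values were seen, and some members are not reported here by name. Members and lists were chosen with earlier results of these data known. Alternatives were pseudocount, filters, scaling, length and GC corrections, transcript choice, groups alone, a replicate block and leaving out livers.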

Additional observations from a re-analysis of the deposited data

How the results depend on the processing

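Over 29 or 30 alternatives per comparison, the number of members called was 0 to 4 in HFD against ND, 0 to 26 in CLE against HFD, 0 to 16 in LU against HFD, 0 to 31 in CLE against ND, 0 to 20 in LU against ND and 0 in CLE against LU. Depth is unknown and 3 mice per group bound the precision; unless a construction shows it, the cause of a move was not tested. The corrections for reference-transcript sum, GC content, length with GC content, levels relative to the family, sums by GENCODE M21 gene and leaving out HFD 12 with CLE 4 were chosen after seeing the data. Leaving out 1 liver gave 0 to 3 calls and a median of -0.16 to 0.10 in HFD against ND, 0 to 26 and 0.12 to 0.48 in CLE against HFD, 0 to 3 and 0.14 to 0.40 in LU against HFD, 2 to 31 and 0.13 to 0.41 in CLE against ND, 0 to 11 and 0.17 to 0.29 in LU against ND, and 0 to 0 and -0.09 to 0.19 in CLE against LU. Calls in CLE against HFD, CLE against ND and LU against ND were 1, 6 and 1 without a filter on low values and 0, 3 and 20 with only the 2 groups compared in the fit. Median-of-ratios scaling gave 1 call in CLE against ND and 0 in LU against ND, quantile normalization 8 in CLE against HFD, and the reference-transcript sum 7 in CLE against ND. An equal sum over named genes gave 0 calls in HFD against ND, CLE against HFD, CLE against ND and LU against ND, with medians of -0.32, 0.01, -0.35 and -0.20, and -0.16 in CLE against LU; in CLE against ND it reversed, among called members named here, Rpl11 (-0.16), Rpl12 (-0.14), Rpl13 (-0.02), Rpl6 (-0.21), Rpl7a (-0.08), Rps12 (-0.07) and Rps7 (-0.07). Length correction gave 1 call in CLE against HFD, 4 in CLE against ND and 4 in LU against ND, with medians of 0.00 in both comparisons with ND. GC correction gave 0, 1 and 0 calls in CLE against HFD, CLE against ND and LU against ND. Length with GC correction gave 4, 1 and 3 in HFD against ND, CLE against HFD and CLE against ND, with medians of 0.00 in CLE and LU against ND. Levels relative to the family centre the members by construction and shift all other genes by the same amount. They gave 0, 0, 1 and 0 calls in HFD against ND, CLE against HFD, CLE against ND and LU against ND. Their medians were 0.02, 0.01, -0.01 and -0.01 in CLE against HFD, LU against HFD, CLE against ND and LU against ND. The most abundant transcript gave 1, 1 and 7 calls in HFD against ND, CLE against HFD and CLE against ND, reference transcripts alone 1 and 0 in the first of these and in CLE against HFD, and sums by GENCODE M21 gene 1 in CLE against HFD. Without HFD 12 and CLE 4 there were 0, 16, 7 and 19 calls in CLE against HFD, LU against HFD, CLE against ND and LU against ND.

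Mouse numbers 2 and 4 are shared by ND and CLE and 2 and 3 by ND and LU. Same-numbered livers correlated at -0.26, -0.10, 0.09 and 0.18 in their deviations over 11566 genes, and the livers share only a number. The fit with a replicate block left 0 calls in CLE against ND and 0 in LU against ND, with medians of 0.28 and 0.33 and 7.01 total degrees of freedom.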

Other observations

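Genes of 2 other large protein complexes were also measured. The calls given here were not repeated with other scaling or with livers left out. Mitochondrial ribosomal protein genes, which serve translation inside mitochondria, numbered 70. In HFD against ND, 1 rose (Mrpl45) and 1 fell (Mrpl15, log2 fold change -0.43 ± 0.10, adjusted p = 0.013, limma), and none was called in CLE or LU against HFD, where the medians were 0.16 and 0.12. In CLE against ND, 17 of 70 rose and none fell, which is near the 20.9% of all genes that rose, with a median of 0.24 against 0.16 for all genes.

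Of 39 proteasome subunit genes tested, 7 rose in CLE against HFD and none fell, where 2.74% of all genes rose and 3.29% fell, with a median of 0.22 against 0.02 for all genes. Psmc3, an ATPase of the regulatory particle, measured 83.1, 78 and 82 FPKM in HFD mice 12, 15 and 18 and 102, 113 and 115 FPKM in CLE mice 2, 4 and 11, a log2 fold change of 0.43 ± 0.09 (adjusted p = 0.032). The catalytic subunit Psmb5 changed by 0.60 ± 0.16 (adjusted p = 0.045). No proteasome gene was called in LU against HFD, where the median was 0.18.

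A processed copy named Rpl39-ps measured 282, 298 and 273 FPKM in ND, 524, 377 and 449 FPKM in HFD, 286, 423 and 329 FPKM in CLE and 167, 168 and 198 FPKM in LU. It rose in HFD against ND (0.65 ± 0.15, adjusted p = 0.017) and fell in LU against HFD (-1.33 ± 0.15, adjusted p = 0.0021). Rpl39 itself measured 154, 105 and 60.9 FPKM in HFD and 173, 164 and 160 FPKM in LU, a log2 difference of 0.73 ± 0.27 (adjusted p = 0.17). How fragments shared by the 2 genes were assigned was not tested.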
